A study of Mus musculus with 4 samples.

Results

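The antimicrobial genes followed here were, in cultured mouse keratinocytes, S100a8 and S100a9, which encode the subunits of calprotectin, S100a7a, which encodes a psoriasin-type S100 protein, and the beta-defensin gene Defb4. They were chosen by name. A transcript cluster, the array's unit for a gene, was taken where a deposited table gave exactly that symbol, and its value was then read on every array. All 4 genes were found, among 3059 clusters with a single symbol and 22206 clusters in all.

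The cells were primary keratinocytes of male mice, wild type (WT) or of a line that the labels call HMGB1 KO and the design text K5-HMGB1. How the allele was made, and how many animals gave cells to a culture, are not given in the sources used here. Cultures of each genotype were left untreated or received the cytokine interleukin-4 (IL-4, recombinant) for 12 h at 100 ng/ml. Each of the 4 groups was measured on 1 Clariom S Mouse array, so no value has a replicate error, no test was made, and precision is limited by the small number of arrays.

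Calprotectin is a heterodimer of calcium-binding S100 proteins that withholds metal ions from microbes and, once released, acts as an alarmin through Toll-like receptor 4 and the receptor RAGE, which also bind HMGB1. Psoriasin is the human protein S100A7, abundant in psoriatic skin, and S100a7a is a mouse relative of its gene. Beta-defensins are small, cationic, cysteine-rich peptides that disrupt microbial membranes. In human keratinocytes these genes are known to be induced by interleukin-17, interleukin-22, interleukin-1 family cytokines and tumour necrosis factor, and to be held down by the type 2 cytokines IL-4 and interleukin-13.

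The S100 genes are neighbours. In the RefSeq annotation of GRCm38.p6, S100a7a lies at chr3:90651925-90658130, S100a8 at chr3:90669071-90670034 and S100a9 at chr3:90692630-90695721, with gaps of 10941 and 22596 bases. Defb4 lies at chr8:19198704-19201547, beside Defb14. All 4 are annotated as protein-coding, and the clusters measure the gene as a whole, without separating exons. The RefSeq table held a promoter window for 3 of the genes. The 250 bases before the start are shown because these neighbouring genes moved in opposite directions with IL-4. Each runs 5′ to 3′ on its gene's strand, and capitals mark matches to the motifs named after the sequences.
S100a8: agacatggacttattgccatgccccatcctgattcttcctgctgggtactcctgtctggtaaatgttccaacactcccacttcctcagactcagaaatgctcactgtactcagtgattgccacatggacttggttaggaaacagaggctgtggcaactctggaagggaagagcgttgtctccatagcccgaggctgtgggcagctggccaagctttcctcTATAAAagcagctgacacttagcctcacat
S100a9: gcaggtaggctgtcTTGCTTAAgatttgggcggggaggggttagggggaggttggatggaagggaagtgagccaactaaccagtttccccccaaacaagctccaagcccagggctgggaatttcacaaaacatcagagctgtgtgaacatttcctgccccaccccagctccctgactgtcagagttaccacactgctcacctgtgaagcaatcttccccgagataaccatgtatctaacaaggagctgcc
S100a7a: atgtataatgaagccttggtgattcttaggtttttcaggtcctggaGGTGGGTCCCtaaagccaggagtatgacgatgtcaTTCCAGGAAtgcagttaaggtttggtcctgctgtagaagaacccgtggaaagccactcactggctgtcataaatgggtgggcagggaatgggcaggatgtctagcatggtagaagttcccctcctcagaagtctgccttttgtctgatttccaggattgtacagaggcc
The windows are chr3:90668821-90669070 on the plus strand for S100a8, chr3:90695722-90695971 on the minus strand for S100a9 and chr3:90654052-90654301 on the plus strand for S100a7a. The S100a7a window ends 2377 bases inside the annotated gene, because the table uses a later start.

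Motifs were searched on both strands in windows that also hold the 50 bases after the start, and the same search was made in all 32851 RefSeq windows. The S100a7a window held the STAT motif TTCNNNGAA (N is any base) from base -169 to -161, found in 8.3% of all windows. It also held a loose NF-kB motif, GGG and CC with any 5 bases between, on the minus strand, found in 50.8%. The S100a9 window held the C/EBP motif TTGCNNAA from base -236 to -229, found in 10.8%, whose other strand reads as TTNNGCAA. The capitals in the S100a8 window mark TATAAA at base -30, a search on the gene's own strand that was added after the sequences were seen. That word stood in 8.32% of all windows, and in S100a9 it began at the annotated start itself, base 1. No window of these genes held a strict NF-kB motif, GGG and TTTCC with any 2 bases between (1.63% of all windows, a special case of the loose motif), the STAT motif with a spacer of 4 bases in place of 3 (6.95%) or the AP-1 motif TGANTCA (7.81%). A match of letters is a description and does not show that a factor binds.

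The values are the authors' log2 expression values, and every difference below is between 2 arrays. A cluster was counted as higher or lower where it differed at least 2-fold (1 on the log2 scale) and its highest value reached 5.33, the median of all deposited values. This left 11456 clusters. Negative control rows of the array set a second mark, since 95% of their values lay under 9.21. A difference between values under that mark is uncertain in size. A log2 spread of 0.38, derived from how far the response to IL-4 differed between genotypes over all clusters, serves as a yardstick for a single difference. It does not cover variation common to both cultures of a genotype or of a treatment. Array medians lay between 5.10 and 5.15. The targeted gene Hmgb1 had a KO minus WT difference of -6.74 untreated and -6.57 with IL-4, with values of 14.71 and 7.97 untreated and of 14.17 and 7.60 with IL-4. Of 12 listed basal keratinocyte markers 4 have a symbol, Itga3, Itgb1, Itgb4 and Lamb3, and their mean level was 15.00 to 16.84 on the 4 arrays. These levels alone do not settle the identity of the cells.

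With IL-4 the calprotectin genes and Defb4 fell and S100a7a rose, in cells of both genotypes. S100a8, the smaller calprotectin subunit, stood at 14.15 in untreated WT and 13.08 in untreated KO, and at 9.78 and 8.68 with IL-4. Its highest values were those of the untreated cultures, and in each treatment the KO value was the lower. The fall was -4.37 in WT and -4.41 in KO, or 20.7-fold and 21.2-fold, so the responses differed by -0.03. Only the KO value with IL-4 was under the negative control mark. With it raised to the mark the responses differed by 0.50, of the other sign. That lies within 0.53, the log2 spread of a difference of responses over all clusters.

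S100a9, the partner subunit, stood at 13.83 in untreated WT and 12.48 in untreated KO, and at 7.93 and 7.76 with IL-4. The untreated cultures were again the high ones, while the IL-4 values of the genotypes lay within 0.18 of each other. The fall was -5.90 in WT (59.7-fold) and -4.73 in KO (26.5-fold). Both IL-4 values are under the mark, so these folds are uncertain in size. Of the 11456 clusters, 25 (0.218%) differed as much as S100a9 in WT and 42 (0.367%) in KO, S100a9 included. With values under the mark raised to it, S100a9 and S100a8 stood at -4.62 and -4.37 in WT and at -3.27 and -3.87 in KO, so their order was not settled.

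S100a7a behaved the other way. Its values were 5.13 in untreated WT, 4.21 in untreated KO, 8.37 in WT with IL-4 and 8.63 in KO with IL-4. Both IL-4 values were above both untreated values. The rise was 3.24 in WT (9.44-fold) and 4.42 in KO (21.4-fold). All 4 values lie under the negative control mark. Among the 776 negative control rows whose highest value was within 1 of that of S100a7a, 38 (4.9%) differed as much between the WT arrays and 11 (1.42%) between the KO arrays.

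Defb4 read 9.04 in untreated WT, 7.70 in untreated KO, 5.09 in WT with IL-4 and 6.04 in KO with IL-4. The untreated values were above the IL-4 values, and the order of the genotypes turned between the treatments. The fall was -3.95 in WT (15.5-fold) and -1.66 in KO (3.16-fold). All 4 values are under the mark. Of 612 negative control rows of like level, 24 (3.92%) differed as much in WT and 122 (19.9%) in KO.

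**Figure D1:**
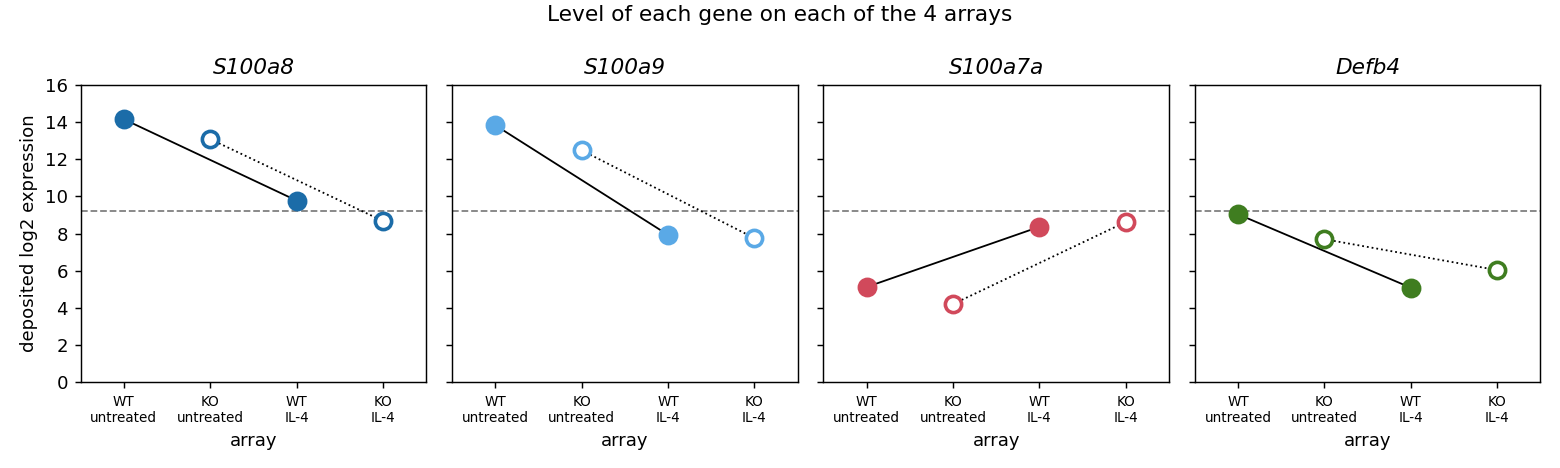
Deposited log2 expression (vertical axis) of each gene on each of the 4 arrays (horizontal axis), filled points for WT and open points for KO, with lines joining the untreated and IL-4 cultures of a genotype, solid for WT and dotted for KO. The dashed line is the negative control mark of 9.21; S100a8 and S100a9 start well above it and end near or under it, and S100a7a and Defb4 stay under it on every array.

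In WT, 3 of the 4 genes fell and 1 rose, where 9.39% of all clusters fell and 10.9% rose. This count follows from the way the genes were found, since the tables give a symbol only to clusters that differed at least 2-fold in WT with IL-4 or between KO and WT with IL-4. In the authors' deposited table of the WT comparison the folds were 20.75 for S100a8, 59.66 for S100a9 and 15.47 for Defb4, higher untreated, and 9.44 for S100a7a, higher with IL-4. The KO arrays played no part in naming S100a9, S100a7a and Defb4, while S100a8 also stood in the table of the genotype comparison with IL-4. In KO, 3 genes fell and 1 rose as well, against 9.51% and 9.12% of all clusters. Of the 1076 clusters that fell in WT, 66.8% fell in KO, and of the 1250 that rose in WT, 52.9% rose in KO, so a shared direction is common among clusters found this way.

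**Figure D2:**
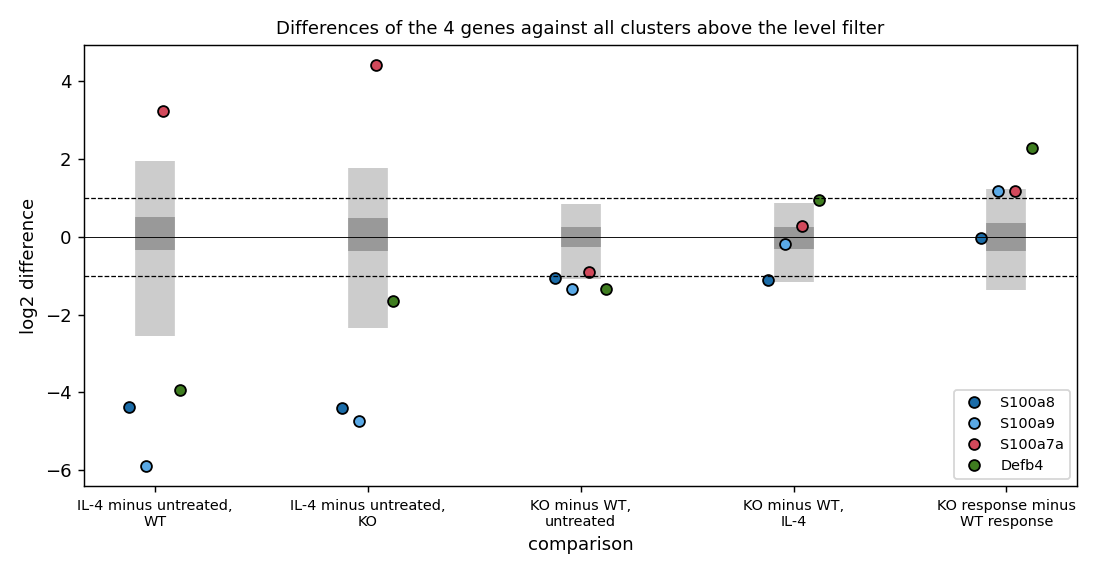
Log2 difference (vertical axis) of the 4 genes in each comparison (horizontal axis); the light bar spans the central 95% and the dark bar the central 50% of the 11456 clusters, and dashed lines mark 2-fold. S100a8, S100a9 and S100a7a lie outside the light bar for IL-4 in both genotypes, Defb4 lies outside it in WT and inside it in KO, and in the last column Defb4 stands highest at 2.29.

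Markers of cell states also moved with IL-4. All 13 listed suprabasal and cornified keratinocyte markers have a symbol, and all 13 fell with IL-4 in both genotypes. Of all clusters, 9.39% fell in WT and 9.51% in KO. Each marker is among the clusters named for a WT difference of at least 2-fold, so the WT count is tied to the naming. Of the clusters that fell in WT, 66.8% fell in KO. The mean level of the 13 markers went from 14.76 to 9.38 in WT and from 14.48 to 9.72 in KO. The 4 basal markers with a symbol went the other way, with medians of 1.81 in WT and 1.19 in KO. All 4 rose at least 2-fold in WT, the difference that named them, and 2 did in KO. Of all clusters, 10.9% rose in WT and 9.12% in KO. S100a8 and S100a9 are also abundant in neutrophils and monocytes. Of 19 listed markers of those cells 3 have a symbol: Cd68, a lysosomal protein, stood at 13.18 in untreated WT and 10.71 with IL-4, the chemokine receptor Cxcr2 at 7.70 and 5.67, and Cd14 at 4.39 and 5.90. Cxcr2 and Cd14 were under the negative control mark on all arrays, and the mean of the 3 was 8.42, 7.94, 7.43 and 7.31 in untreated WT, untreated KO, WT with IL-4 and KO with IL-4. The other 16 markers, the pan-leukocyte gene Ptprc among them, have no symbol in the tables and were not analysed here. Of 10 fibroblast and 6 melanocyte markers 3 and 4 have a symbol, with mean levels of 8.92 to 10.69 and of 7.96 to 9.58 over the arrays, and the 1 T cell and 2 endothelial markers with a symbol were under the mark throughout. The means blend Fbln1 and Tyr, under the mark on all arrays, with Vim, Sparc and Tyrp1, above it on all. With IL-4, KO minus WT was 1.98 for Vim, 1.71 for Sparc, 1.62 for Tyrp1, 1.56 for Dct and -1.24 for Fbln1. That same difference gave Vim, Sparc and Tyrp1 their symbols. Of 6 markers of antigen-presenting cells 1 has a symbol, Epcam, an adhesion molecule also found in epithelia, which rose by 2.37 in WT. The part of any of these cell states in the falls of S100a8 and S100a9 was not tested, and in bulk RNA fewer cells of a type cannot be told apart from less RNA per cell.

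The wider antimicrobial list moved mostly with calprotectin. Of 32 listed epithelial antimicrobial genes 12 have a symbol, and in WT 10 of them fell, S100a7a alone rose and Ccl20 (-0.26) did neither, where 9.39% of all clusters fell and 10.9% rose. The 11 that moved owe their symbol to that same difference. With the level filter at the negative control mark 6 were left, all of them lower. Beside the 4 genes, the falls in WT were those of Wfdc5 (-4.97) and Wfdc12 (-1.37), members of the whey acidic protein family, Pglyrp4 (-1.99), a peptidoglycan recognition protein, Adm (-1.06), a peptide hormone with antimicrobial activity, and the beta-defensins Defb14 (-2.56), Defb1 (-2.28) and Defb3 (-1.97). In KO 8 fell and 1 rose, against 9.51% and 9.12% of all clusters, with a median of -1.59 against 0.07 for all clusters. The 1076 clusters that fell in WT are the nearer background, since that fall named most of the list. Of them 66.8% fell in KO, and their median KO difference was -1.45. The filter at the mark left 5 of the antimicrobial genes in KO, all lower. The other falls there were those of Wfdc5 (-4.03), Wfdc12 (-3.68), Defb1 (-2.36), Pglyrp4 (-1.52) and Defb14 (-1.33). Adm (0.93), Ccl20 (-0.17) and Defb3 (-0.02) did not pass 2-fold in KO. Of 11 listed beta-defensins 4 have a symbol, and all 4 fell in WT and 3 in KO. The values of Wfdc12, Pglyrp4, Defb3 and Ccl20 were under the negative control mark on all arrays.

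**Figure D3:**
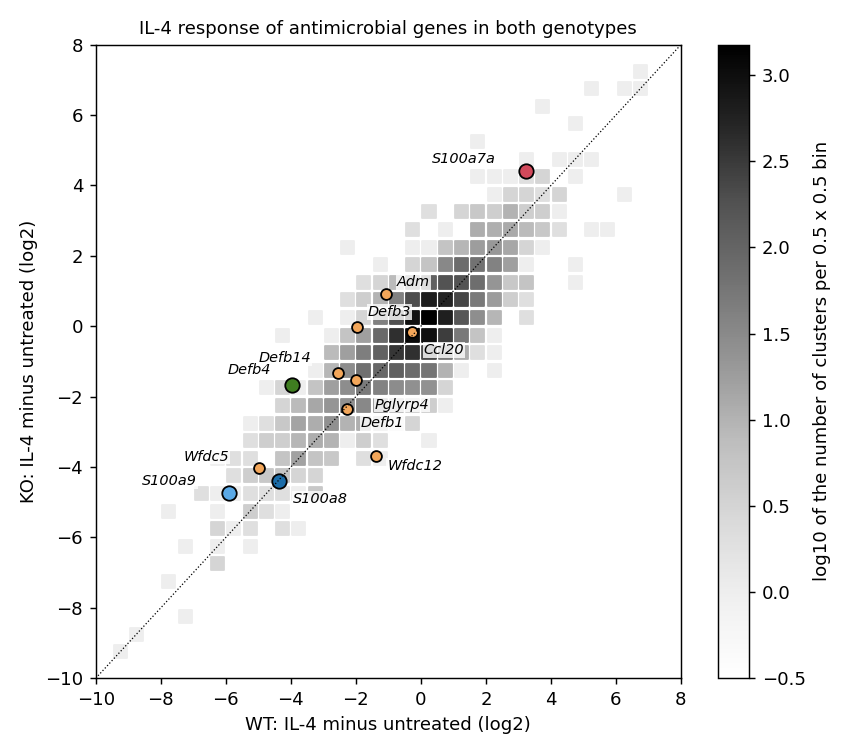
IL-4 minus untreated on the log2 scale in WT (horizontal axis) and KO (vertical axis) for the 12 named antimicrobial genes, over a grey map of how many of the 11456 clusters fall in each square of the plot; the dotted line marks equal responses. S100a8 sits on the line as deposited, S100a9 and Defb4 lie above it among the falls, and S100a7a stands apart in the upper right.

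The genomic neighbours did not share a single direction. On chromosome 3, between S100a1 and Pglyrp4, RefSeq lists 13 protein-coding genes, of which 4 have a symbol in the tables. In that order along the chromosome the WT differences were 3.24 for S100a7a, -4.37 for S100a8, -5.90 for S100a9 and -1.99 for Pglyrp4, and the KO differences were 4.42, -4.41, -4.73 and -1.52. On chromosome 8, from Defb14 to Defb3, 3 of 6 genes have a symbol, and all 3 were lower with IL-4 in WT, where 9.39% of all clusters fell. A WT difference of at least 2-fold is what named the genes of both regions, so genes that did not differ are left out. S100a7a, Pglyrp4, Defb4 and Defb3 are under the negative control mark on all arrays. Of 19 genes on the S100 list 4 have a symbol. The one beyond S100a7a, S100a8 and S100a9 was S100pbp, a gene for an S100P-binding protein. It stood at 0.50 in WT and -1.73 in KO, with all 4 values under the mark.

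Without IL-4, the antimicrobial genes were lower in KO than in WT. S100a8 was lower by -1.07 (2.1-fold), S100a9 by -1.35 (2.55-fold) and Defb4 by -1.34 (2.53-fold), while S100a7a, at -0.92 (1.89-fold), did not pass 2-fold. So 3 of 4 genes were at least 2-fold lower, where 3.12% of all clusters were. For S100a8 and S100a9 all the untreated values lie above the negative control mark. Differences as large as theirs were seen in 4.6% of the 1001 clusters of like level for S100a8 and in 2.53% of the 1147 for S100a9. Of 29 and 34 negative control rows of like level, 7 (24.1%) and 6 (17.6%) differed as much. For Defb4 both untreated values lie under the mark, and 132 of 612 such rows (21.6%) differed as much. Its difference is 0 with low values raised to the mark.

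This difference shares the WT untreated array with the WT response through which most symbols came. Among the 1076 clusters that fell in WT, untreated KO minus WT had a median of -0.45, and 19.5% were at least 2-fold lower. That is the background such a choice leaves. Of the 12 named antimicrobial genes 7 were at least 2-fold lower in untreated KO: Defb3 (-1.57), S100a9, Defb4, Defb14 (-1.20), Ccl20 (-1.19), S100a8 and Adm (-1.06). With the filter at the mark 4 were left: S100a8, S100a9, Defb14 and Adm. Wfdc12 was higher, as 1.34% of all clusters were, by 2.94 and with values under the mark, and Defb1, the defensin with the highest levels, differed by 0.27. Cd68 also was lower in untreated KO, by -1.65. The 13 suprabasal markers had a median difference of -0.30, ranging from Flg2 (-1.97) to Krt10 (1.97), and their part in the lower calprotectin values was not tested.

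With IL-4 the genotypes differed less in S100a9, S100a7a and Defb4 than untreated. All IL-4 values of these genes lie under the negative control mark, so the sizes of their IL-4 differences are uncertain. S100a8 was the exception among the 4, lower in KO by -1.10 (2.15-fold), which is also the fold of the authors' deposited table that gave this gene its second listing. That makes 1 of the 4 genes that was at least 2-fold lower, against 3.86% of all clusters, and the KO value of S100a8 lies under the mark. S100a9 differed by -0.18 and S100a7a by 0.26, both within the yardstick. Defb4 was higher in KO, by 0.95 (1.93-fold), short of 2-fold. Of the 12 named antimicrobial genes, S100a8 and Ccl20 (-1.10) were at least 2-fold lower, none was at least 2-fold higher (1.61% of all clusters were), and 8 had differences above 0. Ccl20 is under the mark on all arrays, so the filter at the mark left S100a8, which itself went to -0.57 with its KO value raised to the mark.

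**Figure D4:**
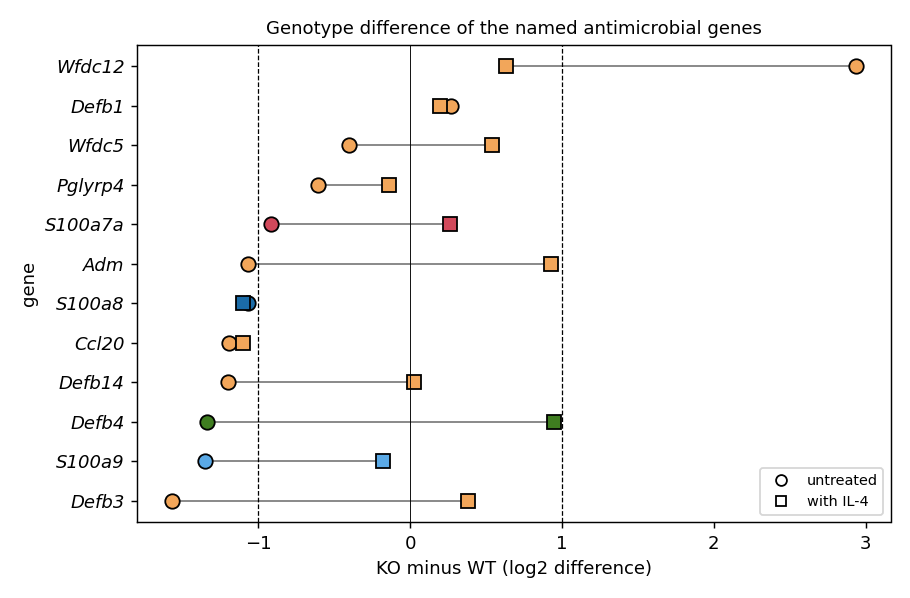
KO minus WT on the log2 scale (horizontal axis) for each of the 12 named antimicrobial genes (vertical axis), circles untreated and squares with IL-4, dashed lines at 2-fold. Most circles lie left of 0, and the squares of S100a8 and Ccl20 are those that stay left of the 2-fold line, S100a8 with its KO value and Ccl20 with all its values under the negative control mark.

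The IL-4 response was then compared between the genotypes as KO minus WT. It was 2.29 for Defb4, 1.18 for S100a7a, 1.17 for S100a9 and -0.03 for S100a8. Of the 11456 clusters, 4.42% had a difference of at least 2-fold in the direction of these 3 genes, and 52 (0.454%) differed as much as Defb4 in either direction. For S100a9 the value is made of an untreated difference of -1.35 and an IL-4 difference of -0.18, for Defb4 of -1.34 and 0.95. The fall of S100a9 in KO starts from a lower untreated level, and in both genotypes it ends under the negative control mark. With low values raised to the mark the difference of responses was 1.35, the size of the untreated difference alone. Whether S100a9 fell less in KO cannot be told from values under the mark. Of the clusters that fell in WT, as S100a9 and Defb4 did, 23.0% had a value of at least 1 in the same direction. Of those that rose in WT, as S100a7a did, 2.16% had one, but all values of S100a7a lie under the negative control mark. The WT response shares both WT arrays with this difference. For Defb4, 109 of 612 negative control rows of like level (17.8%) differed as much, for S100a7a 300 of 776 (38.7%) and for S100a9 9 of 34 (26.5%).

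In a list of cytokines that induce these genes and of related ligands, some fell and others rose with IL-4. The list is not of inducers alone, since it holds the receptor antagonists Il1f5 and Il1rn and the growth factor Areg. The falls in WT counted here include those of Il1f5, Il1rn and Areg. Of 29 listed, 13 have a symbol. In WT 8 fell and 5 rose (9.39% and 10.9% of all clusters), and in KO 7 fell and 5 rose (9.51% and 9.12%). The WT counts here and for the receptors and alarmins below follow from the naming, since nearly all of these symbols come from the table of clusters that differed in WT. For the KO counts, 66.8% of all clusters that fell in WT fell in KO, and 52.9% of those that rose in WT rose. The interleukin-36 genes, in the tables' older symbols, fell in both genotypes: Il1f9 (-2.66 in WT, -2.70 in KO), Il1f6 (-2.68, -1.78) and Il1f8 (-3.97, -3.08). So did their receptor antagonist Il1f5 (-4.47, -3.63) and the interleukin-1 receptor antagonist Il1rn (-3.37, -3.97). For Il1f6 only the untreated WT value reached the mark, and with low values raised its WT difference was -0.30. Tnf rose by 4.61 in WT and 1.91 in KO from untreated values under the mark, and by 2.35 and 0.10 with these raised. Il1a, an alarmin of keratinocytes, rose by 1.19 and 1.07. The epidermal growth factor receptor ligand Areg fell in WT (-2.01) and stood at -0.63 in KO, with all 4 values under the mark.

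Among upstream receptors and transcription factors, of 39 listed genes 18 have a symbol, with 7 up and 10 down in WT (10.9% and 9.39% of all clusters) and 3 up and 7 down in KO (9.12% and 9.51%). Il22ra1, the interleukin-22 receptor chain, fell in WT (-2.67) and KO (-2.61) and was at least 2-fold lower in KO than in WT untreated (-1.06) and with IL-4, though its 4 values lie under the mark. Cebpa, a C/EBP factor of keratinocyte differentiation, fell too (-2.78, -2.86). Cebpb, a related factor, stood at -2.03 in WT and -1.19 in KO, but only its untreated WT value reached the mark, and with low values raised the WT difference was -0.09. Nfkb2, a subunit of NF-kB, rose by 2.29 and 1.89 from untreated values under the mark, and by 0.35 in WT with these raised. Il1r1, the interleukin-1 receptor, rose by 2.30 and 1.63. Il17re, part of the receptor for the epithelial cytokine interleukin-17C, rose by 1.18 and 1.64.

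Of 11 listed receptors for the 4 proteins and related signals, 3 have a symbol, and all 3 rose in WT, the difference that named them (10.9% of all clusters rose). Alcam, a cell adhesion molecule, rose by 1.62 in WT and 1.89 in KO. Cd14, a co-receptor of Toll-like receptor 4, stood under the mark at 1.52 and 1.18. Tlr2, a receptor for bacterial lipoproteins, rose in WT, from 10.64 to 12.04, stood at a difference of 0.57 in KO, and was lower in KO with IL-4 by -1.02. Tlr4 and Ager, the gene of RAGE, have no symbol in the tables and were not analysed here. Of 10 listed alarmins, Hmgb1 and calprotectin included, 5 have a symbol, of which 3 fell and 1 rose in each genotype (9.39% and 10.9% of all clusters in WT, 9.51% and 9.12% in KO). Of these 5, Hmgb1 owes its symbol to the genotype comparison with IL-4 and the others to the WT response. Il33, an alarmin of epithelial nuclei, fell with calprotectin, at -7.96 in WT and -7.27 in KO (-3.83 and -3.51 with its IL-4 values raised to the mark), and differed between the untreated genotypes by -0.32.

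**Figure D5:**
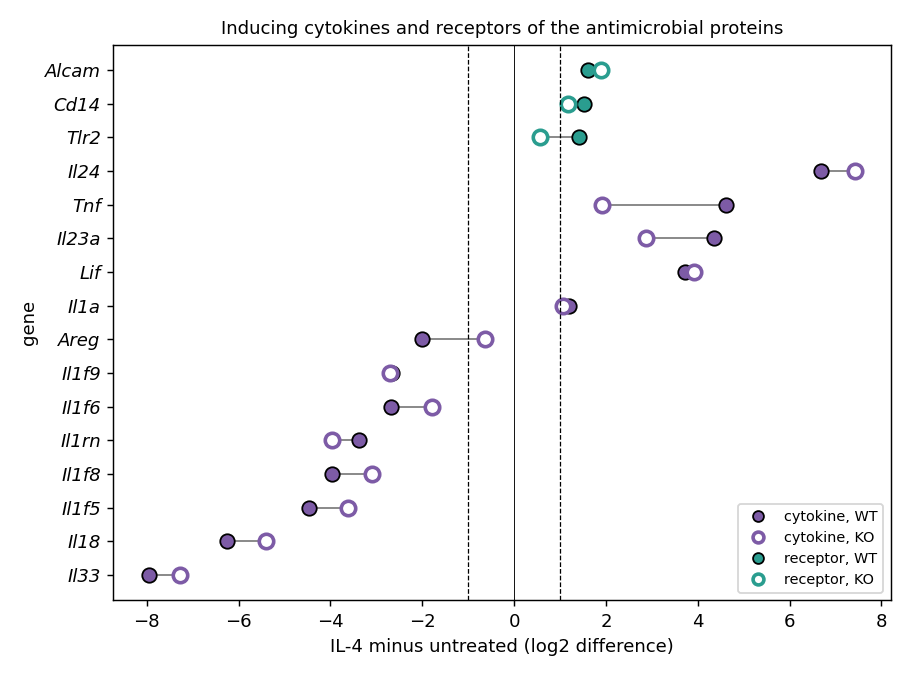
IL-4 minus untreated on the log2 scale (horizontal axis) for the named genes of the cytokine list (purple) and receptors (green). Filled points are WT and open points KO, with dashed lines at 2-fold. The cytokine list holds the receptor antagonists Il1f5 and Il1rn and the growth factor Areg beside inducers. The interleukin-36 genes, Il18 and Il33 lie left of the lines in both genotypes, and Il24, Tnf, Il23a and Lif lie right of them.

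The genes with the most similar pattern over the 4 arrays were sought among 2568 named clusters, by the distance between log2 values centred on each cluster's mean. S100a8 was nearest to Gm5416 (0.17), the sphingolipid enzyme gene Sptlc3 (0.28), Creb3l1 (0.43), Serpinb6c (0.49) and Tgm1 (0.49), the cross-linking enzyme of the cornified envelope. S100a9 was nearest to BC117090 (0.32), Sdr9c7 (0.46), an enzyme of the epidermal lipid barrier, Aox4 (0.54), Lce1i (0.59), a late cornified envelope gene, and Cyp2b10 (0.61). Defb4 was nearest to Capns2 (0.39), Lce1c (0.41), the interleukin-1 receptor kinase gene Irak2 (0.44), Osbpl1a (0.47) and Ephx4 (0.48). S100a7a had no neighbour closer than Tinagl1 (0.66), followed by Pmp22 (0.77), Tsku (0.79), Mal (0.80) and Prl2c5 (0.85). No gene was among the 5 nearest of more than 1 of the 4 genes, and S100a8 and S100a9 were not in each other's 5. Gm5416, Capns2, Irak2 and Ephx4, like S100a7a and Defb4, were under the negative control mark on all arrays. So were both IL-4 values of S100a9 and the KO IL-4 value of S100a8. Distances that rest on such values are uncertain in size.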

How the data were processed

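Expression was measured on 1 Clariom S Mouse array per group, from 100 ng of total RNA. The authors made the deposited log2 values with RMA (Affymetrix Expression Console 1.4), per the submitters' processing notes; the design text also names the Affymetrix Exon Array Computational Tool. RMA corrects background, normalizes between arrays and summarises probes, so a global RNA change is removed. The deposited log2 values reach 19.93, above the 16 of a 16-bit scanner, so a further transformation of unstated form may apply. The signed fold change, a score in the authors' deposited tables, has a plus sign where the sample named first is the higher; it was used only as a printed value. Per the file headers, clusters were annotated with release na36 (mm10).

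Differences, counts and ranks were computed in Python 3.11.15 with numpy 2.4.6 and pandas 2.3.3, and the alternative scalings in R 4.3.3 with limma 3.58.1. The yardstick is the robust SD of the difference of IL-4 responses, 0.53, divided by the square root of 2. Clusters of like level have a highest value within 1 of the gene's. The calling step was tested on simulated data. With 1 array per group no test was fitted; alternatives were other scalings, level filters, limits on low and high values, and fold thresholds. Symbols come only from the 2 deposited tables, of 2610 and 898 clusters, and 119 clusters with several symbols were left unnamed. Named genes are the 4 genes, list members with a symbol, and the 5 nearest patterns of each gene. The genes and lists were chosen with earlier results of these data known. Promoter sequences are RefSeq's, GRCm38.p6; Defb4 had none in the table.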

Additional observations from a re-analysis of the deposited data

Results flagged for a closer look

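A difference was singled out where its direction turned between the treatments or between the genotypes, in all 4 genes without a minimum and in list genes where both differences exceeded the yardstick of 0.38. Each group is 1 array, and none of these turns was tested. Defb4, S100a7a, Defb3, S100pbp, Areg and Il23a are under the negative control mark on all arrays, and each of their differences is 0 with low values raised to it. With low values raised, untreated KO minus WT is also 0 for Tnf and Il2rg, and KO minus WT with IL-4 is 0 for Wfdc5. Of the genes below, Adm alone kept its turn in that setting. Defb4 was lower in KO untreated (-1.34) and higher with IL-4 (0.95), and S100a7a went from -0.92 to 0.26. Among the other antimicrobial genes, the KO minus WT difference went from -1.57 untreated to 0.38 with IL-4 for Defb3, from -0.40 to 0.54 for Wfdc5 and from -1.06 to 0.93 for Adm. The IL-4 response of Adm was -1.06 in WT and 0.93 in KO. S100pbp went from 1.12 untreated to -1.12 with IL-4, and its IL-4 response from 0.50 in WT to -1.73 in KO. Among cytokines and receptors, the KO minus WT difference turned from -0.53 to 0.86 for Areg, from 0.82 to -0.65 for Il23a, from 0.46 to -2.24 for Tnf and from 0.38 to -1.31 for Il2rg, the common receptor chain of IL-4 and related cytokines.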

How the results depend on the processing

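No paired analysis was possible because each group is 1 array. A fit of genotype and treatment without their interaction, which leaves 1 residual degree of freedom, was not made. Cyclic loess, quantile normalization and median centring left each of the 20 differences of the 4 genes within the yardstick, and so did lowering values above 16 to 16. The number of the 4 genes at least 2-fold different in either direction was 4 for IL-4 in WT, 4 in KO, 3 for KO minus WT untreated, 1 with IL-4 and 3 for the difference of responses. A level filter at the negative control mark removed S100a7a and Defb4 and gave 2 for IL-4 in WT, 2 in KO and 1 for the difference of responses. Raising low values to the mark gave 2, 2, 0 for KO minus WT with IL-4 and 1. Of the 12 antimicrobial genes, 11 were called for IL-4 in WT, 9 in KO and 2 for KO minus WT with IL-4, and the filter at the mark gave 6, 5 and 1. Both settings leave out S100a7a and Defb4 by construction, and with low values raised S100a9 and S100a8 stood at -4.62 and -4.37 in WT and at -3.27 and -3.87 in KO. A 1.5-fold threshold gave 2 for KO minus WT with IL-4 (S100a8 lower, Defb4 higher). A 4-fold threshold gave 0 for KO minus WT untreated, 0 with IL-4 and 1 for the difference of responses. The authors' tables changed no count that they could give. Other alternatives for the counts of the 4 genes stayed within 1.5 times. Changed fold thresholds and raised low values also moved some counts of the 12 genes by more than that. Over all clusters, cyclic loess moved the rises and falls with IL-4 in WT from 1250 and 1076 to 1033 and 1244.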
